A study of Homo sapiens with 8 samples.

Results

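Nucleotide supply was examined through 9 human genes that make or prepare the deoxynucleotides for DNA synthesis: RRM1, RRM2, RRM2B, TYMS, TK1, DCK, DTYMK, DUT and TYMP. They were picked by symbol from the 58302 genes of the deposited count table, with no symbol repeated, and all 9 were among the 15712 genes with enough reads to be tested. HCT116 p53+/+ cells, an established human colon cancer line that keeps wild-type p53, had been given 1 µM MANIO, a compound known here by that name alone, or its solvent DMSO, and RNA was taken 24 hours later. Each group held 4 cultures, described by the submitters as biological replicates. All 8 come from 1 cell line, and the labels do not say whether the cultures were grown on separate days. The p-values therefore weigh the difference between the groups against the spread between these cultures only.

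Ribonucleotide reductase turns ribonucleotides into deoxyribonucleotides and is built from a large catalytic subunit, RRM1, and a small subunit that carries the radical. RRM2 is the small subunit of S phase and is degraded as cells leave mitosis, whereas RRM2B, also called p53R2, is a p53 target gene whose product is available outside S phase, for DNA repair and for mitochondrial DNA. Thymidylate is made from dUMP by thymidylate synthase, TYMS, the enzyme that 5-fluorouracil inhibits in colon cancer, or is salvaged from thymidine by TK1, and DTYMK phosphorylates it further. DUT breaks down dUTP and so yields dUMP, DCK salvages deoxycytidine and the purine deoxynucleosides, and TYMP cleaves thymidine.

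RRM2B was the member that moved most: its transcript was 2.21-fold higher in the MANIO cultures, while neither RRM1 nor RRM2 passed the test. The thymidylate genes TYMS, DUT and DTYMK and the salvage kinase genes TK1 and DCK were lower, by 14.0% to 25.0%. TYMP was higher by 22.4%. In all, 7 of the 9 members (77.8%) passed, 2 higher and 5 lower in MANIO, at an adjusted p under 0.05 in the quasi-likelihood F test of edgeR, Benjamini-Hochberg adjusted over all tested genes. By the same rule 54.6% of all tested genes passed, 27.8% higher and 26.8% lower, so a pass alone says little about these genes. The median log2 fold change of the members was -0.22, beside 0.0043 for all tested genes.

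Promoter letters are shown for the members whose windows held an E2F match or at least 2 CCAAT boxes, because E2F and the CCAAT-binding factor NF-Y are known regulators of genes used in S phase. RefSeq promoter windows (GRCh38.p14) were found for 8 of the 9 members, 14 windows in all, with none for RRM2B, and the 250 bases before each start were searched on both strands. Letters in capitals mark CCAAT (or ATTGG on the other strand), the E2F forms TTTCCCGC, TTTCGCGC, TTTGCCGC and TTTGGCGC, and the CHR forms TTTGAA and TTCGAA, an element of genes expressed in G2 and M. No match overlapped another. The windows run 5′ to 3′ on the gene's strand: RRM2 at chr2:10122489-10122738 (plus), TYMS at chr18:657403-657652 (plus), DUT at chr15:48331947-48332196 (plus), DTYMK at chr2:241686816-241687065 (minus) and TK1 at chr17:78187053-78187302 (minus).
RRM2: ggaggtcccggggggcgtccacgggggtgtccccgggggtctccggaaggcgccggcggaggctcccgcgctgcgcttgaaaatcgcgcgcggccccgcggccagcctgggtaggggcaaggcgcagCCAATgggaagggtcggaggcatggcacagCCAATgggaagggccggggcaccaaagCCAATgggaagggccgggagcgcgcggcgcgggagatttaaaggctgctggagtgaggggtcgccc
TYMS: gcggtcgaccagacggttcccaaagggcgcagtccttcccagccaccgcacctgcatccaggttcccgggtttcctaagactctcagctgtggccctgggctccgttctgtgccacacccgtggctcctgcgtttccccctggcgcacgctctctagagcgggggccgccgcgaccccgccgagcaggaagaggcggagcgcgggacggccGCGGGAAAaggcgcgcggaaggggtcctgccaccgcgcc
DUT: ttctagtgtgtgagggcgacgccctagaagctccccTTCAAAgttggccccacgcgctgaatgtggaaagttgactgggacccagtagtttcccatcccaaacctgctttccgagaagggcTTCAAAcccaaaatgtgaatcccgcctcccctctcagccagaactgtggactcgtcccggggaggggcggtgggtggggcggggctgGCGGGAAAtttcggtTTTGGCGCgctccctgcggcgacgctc
DTYMK: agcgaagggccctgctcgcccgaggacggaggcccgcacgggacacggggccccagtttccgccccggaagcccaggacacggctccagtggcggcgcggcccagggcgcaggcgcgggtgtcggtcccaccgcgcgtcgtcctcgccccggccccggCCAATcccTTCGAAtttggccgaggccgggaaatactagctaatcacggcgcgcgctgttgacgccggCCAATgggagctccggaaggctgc
TK1: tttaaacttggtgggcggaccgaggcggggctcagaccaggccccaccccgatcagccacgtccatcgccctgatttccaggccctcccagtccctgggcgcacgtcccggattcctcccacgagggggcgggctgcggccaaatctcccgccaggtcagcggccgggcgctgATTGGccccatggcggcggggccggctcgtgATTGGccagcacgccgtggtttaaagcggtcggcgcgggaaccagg
The RRM2 window held 3 CCAAT boxes, beginning 123, 93 and 66 bases before the start. The DTYMK and TK1 windows held 2 CCAAT boxes each, the DTYMK window also 1 CHR match beginning 84 bases before the start, the DUT window 2 E2F matches and 2 CHR matches, and the TYMS window 1 E2F match beginning 39 bases before the start. The windows shown were picked for their matches, and the other windows of DUT and TK1 held none. Of the 14 member windows, 7 held a CCAAT box, 3 at least 2 and 1 at least 3. Some windows of the same gene overlap, and the 7 with a CCAAT box belong to 5 members. An E2F form was held by 2 of them and a CHR form by 3. Of all 35116 windows in the table, 32.0% held a CCAAT box, 9.53% at least 2 and 2.93% at least 3. An E2F form was held by 2.79% and a CHR form by 14.3%. These are matches of letters and do not show binding. Of the 5 genes shown, RRM2 did not pass the test and the other 4 were lower in MANIO. Of all tested genes, 26.8% were lower. Among the members whose windows were not shown, DCK held no match and was lower too. TYMP held 1 CCAAT box, the same one in each of its overlapping windows, and was higher. RRM1 held 1 CCAAT box and 1 CHR match and did not pass. The part of the matches in the changes was not tested.

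The reductase genes were measured with high counts. RRM2B (ENSG00000048392) lies on GRCh38 chromosome 8 at 102204502 to 102239118, minus strand, and no exon of another gene overlaps it. It had 271, 299, 278 and 331 CPM (a library's counts brought to a common total, with TMM scaling) in the MANIO libraries, against 145, 121, 133 and 136 CPM in the DMSO libraries. The lowest MANIO library stood well above the highest DMSO library. The mean was 295 ± 26.9 CPM in MANIO and 134 ± 9.90 CPM in DMSO (SD, n = 4 each), a log2 fold change of 1.14 (SE 0.0703; adjusted p = 6.0e-09 in edgeR's quasi-likelihood test). Ordered by log2 fold change from the top, RRM2B was number 545 of the 15712 tested genes. For scale, CDKN1A, the p53 target that encodes the cell cycle inhibitor p21, had a log2 fold change of 2.43, and MDM2, which encodes the ubiquitin ligase that restrains p53, one of 1.85.

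RRM2, the S-phase small subunit gene (ENSG00000171848, chromosome 2 at 10120698 to 10131419, plus strand), had 282, 325, 256 and 310.1 CPM in the MANIO libraries, against 269.7, 277, 266 and 255 CPM in the DMSO libraries. The groups overlapped, and MANIO replicate 3 lay within the DMSO range while the other 3 lay above it. The log2 fold change was 0.14 with a 95% confidence interval of -0.0090 to 0.28 (SE 0.0677; edgeR adjusted p = 0.104). Without MANIO replicate 3 it was 0.20 and passed (edgeR adjusted p = 0.0165), so that 1 library decides the call. RRM1 (ENSG00000167325, chromosome 11 at 4094707 to 4138876, plus strand), the large subunit gene, had 206, 221, 190.3 and 206 CPM in MANIO, against 222, 231, 209 and 199.7 CPM in DMSO. These groups overlapped as well, and the log2 fold change was -0.065 with a 95% confidence interval of -0.19 to 0.062 (edgeR adjusted p = 0.377). Neither interval reaches the size of the RRM2B change, whose own interval was 0.99 to 1.29.

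**Figure D1:**
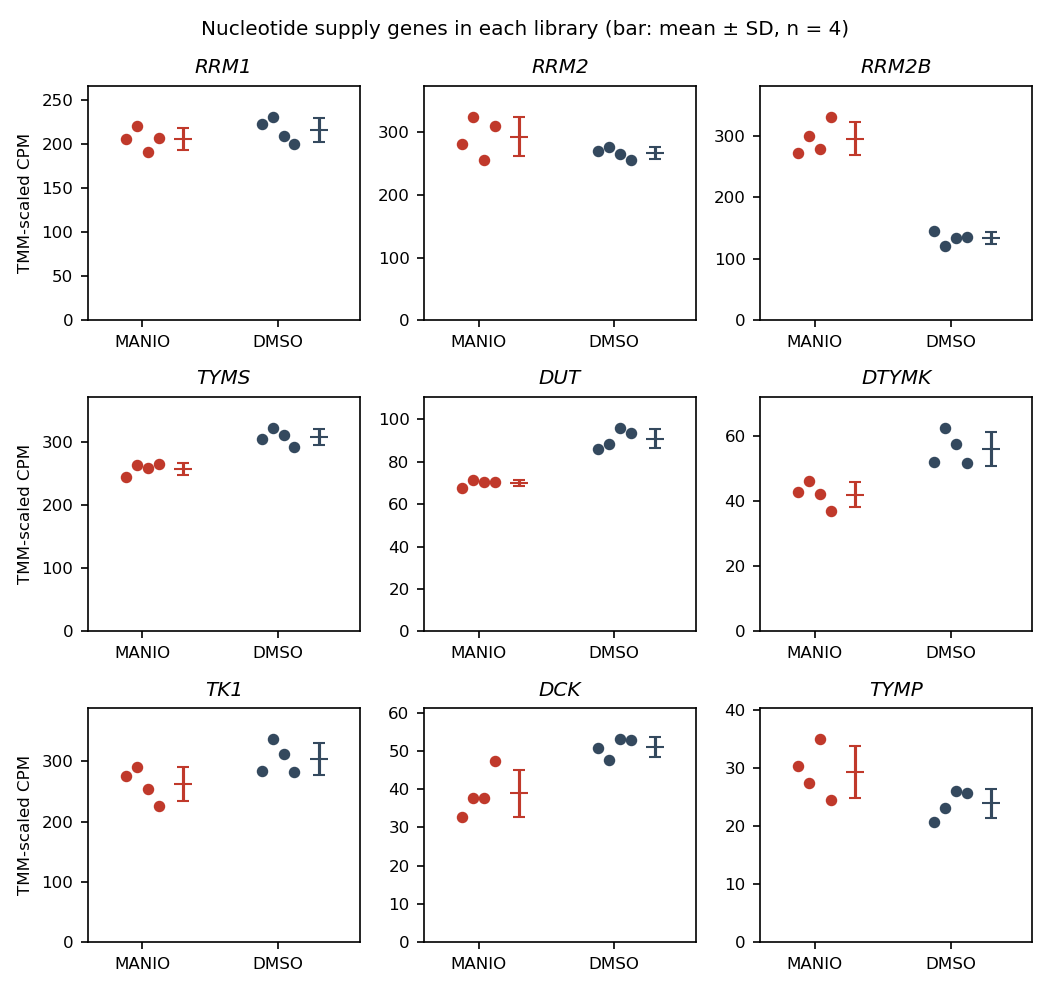
TMM-scaled CPM of the 9 genes (vertical axes, each from 0) in the 4 MANIO and 4 DMSO libraries; each point is a library and the bar beside it the mean ± SD. RRM2B shows the widest gap, 271 to 331 CPM in MANIO against 121 to 145 CPM in DMSO, whereas RRM1, RRM2, TK1 and TYMP overlap between the groups.

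Set against each other per length of merged exons, RRM2B stood near the other 2 reductase genes in MANIO and well below them in DMSO. RRM2 had 55.1 ± 5.78, RRM2B 53.1 ± 4.85 and RRM1 49.3 ± 2.96 CPM per kb in the MANIO libraries, and the libraries of each gene overlapped those of the other 2. Within each library, the ratio of RRM2 to RRM1 was 1.08, 1.16, 1.06 and 1.18 in MANIO, against 0.954, 0.943, 1.00 and 1.00 in DMSO. RRM2 was thus above RRM1 in all 4 MANIO libraries, and the ratios did not overlap between the groups. In the DMSO libraries RRM1 had 51.5 ± 3.29 and RRM2 50.2 ± 1.72 CPM per kb, within their spread, and RRM2B stood lower at 24.1 ± 1.78 CPM per kb (SD, n = 4 each). RRM2B therefore made up 48.0%, 46.9%, 51.0% and 50.6% of the small subunit level (RRM2B plus RRM2, per kb) in the MANIO libraries, against 34.0%, 29.5%, 32.5% and 33.8% in the DMSO libraries. The summed small subunit level per RRM1 level, both per kb, was 2.20 ± 0.136 in MANIO and 1.45 ± 0.0764 in DMSO (SD, n = 4 each), and the groups did not overlap. These are ratios of transcripts, given as a description without a test, and they assume that all annotated exons are used. The lengths keep bases that also lie in exons of other genes, 20.2% for RRM2, 1.51% for RRM1 and 0% for RRM2B. The part of this sharing in the ratios was not tested.

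**Figure D2:**
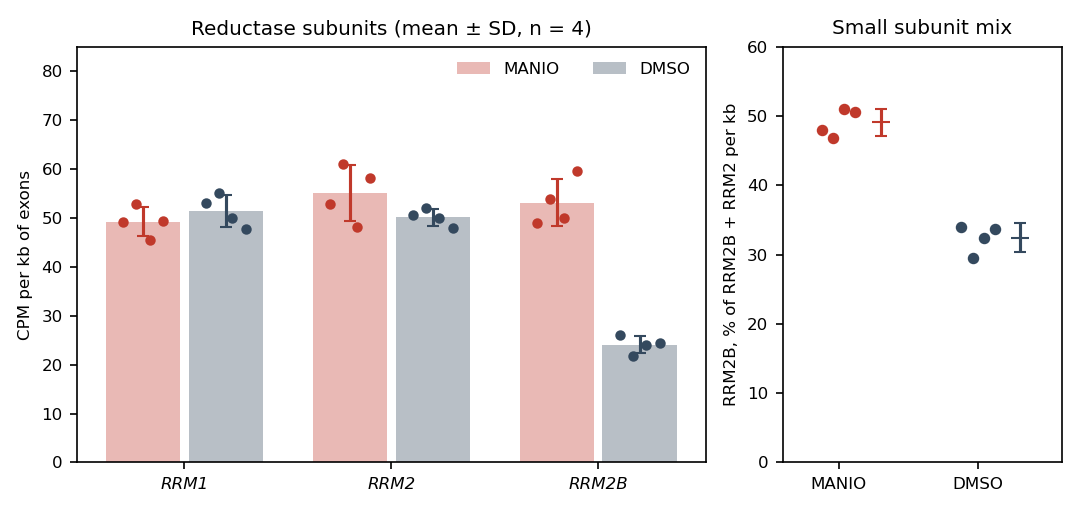
Left: levels of the reductase subunit genes in CPM per kb of merged exons, bars for the mean, error bars for the SD and points for the 4 libraries of each group. Right: RRM2B as a percentage of RRM2B plus RRM2 per kb in each library, 46.9% to 51.0% in MANIO and 29.5% to 34.0% in DMSO.

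The genes that make and protect thymidylate were lower in MANIO, each by a modest amount. In bulk RNA, a smaller share of cells in S phase and less transcript per cell cannot be told apart. TYMS (ENSG00000176890, chromosome 18 at 657604 to 673578, plus strand) had 244, 263, 258 and 264 CPM in the MANIO libraries, against 305, 323, 312 and 292 CPM in the DMSO libraries. The highest MANIO library lay below the lowest DMSO library, and the log2 fold change was -0.26 (SE 0.0514; edgeR adjusted p = 6.0e-04). DUT (ENSG00000128951, chromosome 15 at 48331011 to 48343373, plus strand), the dUTPase gene, had 67.8, 71.5, 70.2 and 70.3 CPM in MANIO, against 86.0, 88.1, 96.0 and 93.3 CPM in DMSO. Its 4 MANIO values were the tightest group of any member, with a coefficient of variation of 2.22%. Counting alone gives 2.04% at the mean count of all 8 libraries. The log2 fold change of DUT was -0.38 (SE 0.0529, edgeR adjusted p = 2.6e-05).

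DTYMK (ENSG00000168393, chromosome 2 at 241675742 to 241686991, minus strand), which encodes thymidylate kinase, had 42.7, 46.3, 42.2 and 37.0 CPM in the MANIO libraries, against 52.2, 62.7, 57.7 and 51.7 CPM in the DMSO libraries. The groups did not overlap, and with a log2 fold change of -0.41 (SE 0.0771; edgeR adjusted p = 3.4e-04) DTYMK fell the most of the 9 genes in this fit. With a limit of 1.2-fold in place of 0, 3 of the 9 members passed, RRM2B, DUT and DTYMK, beside 26.3% of all tested genes. TYMS then had an adjusted p of 0.574 and DCK one of 0.0845 (edgeR glmTreat).

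The salvage kinase genes differed in how firmly they moved. DCK (ENSG00000156136, chromosome 4 at 70992538 to 71030914, plus strand) had 32.8, 37.7, 37.7 and 47.3 CPM in the MANIO libraries, against 50.8, 47.6, 53.2 and 52.9 CPM in the DMSO libraries. MANIO replicate 4 came close to DMSO replicate 2, and the groups stayed apart by a narrow margin (log2 fold change -0.40, SE 0.0897; edgeR adjusted p = 0.00185). TK1 (ENSG00000167900, chromosome 17 at 78174075 to 78187233, minus strand), the cytosolic thymidine kinase gene of S phase, had 276, 291, 254 and 227 CPM in MANIO, against 284, 338, 313 and 282 CPM in DMSO. MANIO replicate 2 lay within the DMSO range, so the groups overlapped, and the log2 fold change was -0.22 (SE 0.0779; edgeR adjusted p = 0.0282). That call was lost in 4 of the 8 edgeR fits with 1 library left out, those without MANIO replicate 3 (adjusted p = 0.0702), MANIO replicate 4 (0.0749), DMSO replicate 2 (0.0872) or DMSO replicate 3 (0.0688).

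TYMP, the thymidine phosphorylase gene (ENSG00000025708, chromosome 22 at 50525752 to 50530056, minus strand), was the one member besides RRM2B that was called higher. It had 30.3, 27.4, 35.1 and 24.5 CPM in the MANIO libraries, against 20.8, 23.1, 26.1 and 25.8 CPM in the DMSO libraries. MANIO replicate 4 lay inside the DMSO range, and the log2 fold change was 0.29 (SE 0.103; edgeR adjusted p = 0.0263). TYMP was called in 4 of the 8 fits with 1 library left out and missed the threshold in those without MANIO replicate 1 (edgeR adjusted p = 0.0605), MANIO replicate 3 (0.0912), DMSO replicate 1 (0.0731) or DMSO replicate 2 (0.065).

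**Figure D3:**
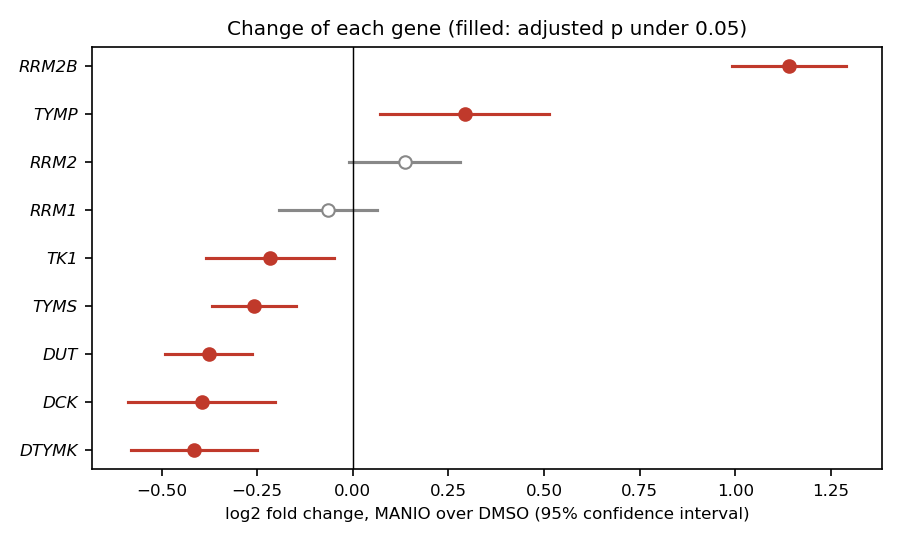
Log2 fold change of each gene, MANIO over DMSO (horizontal axis), with its 95% confidence interval; filled points passed an adjusted p under 0.05 in edgeR's quasi-likelihood test and open points did not. RRM2B stands alone at 1.14, the intervals of RRM2 and RRM1 include 0, and TK1, TYMS, DUT, DCK and DTYMK lie between -0.22 and -0.41.

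The groups did not overlap for 5 of the 9 members (55.6%), RRM2B above and TYMS, DUT, DTYMK and DCK below, while 48.3% of all tested genes were apart in this way, 24.7% above and 23.7% below. Per kb of exons the order of the members was TK1, TYMS, RRM2, RRM2B, RRM1, DUT, DTYMK, DCK and TYMP in the MANIO libraries, running between 141 ± 15.1 and 8.83 ± 1.35 CPM per kb. In the DMSO libraries it was TK1, TYMS, RRM1, RRM2, DUT, RRM2B, DTYMK, DCK and TYMP, between 164 ± 14.2 and 7.21 ± 0.755 CPM per kb (SD, n = 4 each). In the DMSO libraries DUT, RRM2B and DTYMK, at 24.7 ± 1.25, 24.1 ± 1.78 and 22.9 ± 2.12 CPM per kb, were neighbours within their spread. In the MANIO libraries DUT and DTYMK, at 19.0 ± 0.422 and 17.2 ± 1.56 CPM per kb, overlapped in the same way. The lengths keep bases that also lie in exons of other genes. Their share was 46.6% for TYMS, 20.7% for TYMP, 20.2% for RRM2 and 14.5% for DUT, but 0% for TK1 and RRM2B. The part of this sharing in the order was not tested.

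Some counts are uncertain because exons of other genes overlap those of the members. Overlaps on the opposite strand matter here because the kit does not mark the strand, and overlaps on the same strand with any kit. In GENCODE release 29, 46.6% of the exonic bases of TYMS lie in exons of other genes, mostly those of ENOSF1 on the opposite strand, whose log2 fold change was 0.14 (adjusted p = 0.0258 from edgeR), and of TYMSOS (0.23, adjusted p = 0.298 from edgeR). For TYMP the share was 20.7%, from genes on the same strand, ODF3B (-0.40, edgeR adjusted p = 0.023) and a second entry for SCO2 that had 0 counts in all 8 libraries, while the row carrying the symbol SCO2 had 0 to 11. For RRM2 it was 20.2%, from ENSG00000284681 on the same strand, which had 3 to 10 counts in the MANIO libraries and 11 to 27 in the DMSO libraries. It was 14.5% for DUT, 6.17% for DCK, from MOB1B on the same strand (0.38, edgeR adjusted p = 0.00367), and 1.51% for RRM1, from RRM1-AS1. Annotated pseudogenes of RRM2, TYMS and DUT held at most 0.198% of their parent's count in any library. The part of these overlaps in the results was not tested.

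Around thymidylate synthase, the genes of the folate cycle that passed were more often lower than higher. Of 17 tested genes of the thymidylate and folate cycle, 7 were lower, 2 were higher and 8 did not pass (median log2 fold change -0.24). The called share was 52.9%, beside 54.6% of all tested genes, 27.8% higher and 26.8% lower. Against a 1.2-fold limit (edgeR glmTreat), MTHFD1L, MTHFD1 and DHFR2 were called lower and ALDH1L1 and FTCD higher. MTHFD1L, the mitochondrial formate-producing enzyme gene, averaged 80.1 ± 3.54 CPM in MANIO and 107 ± 5.85 CPM in DMSO (log2 fold change -0.42), and MTHFD1, its cytosolic counterpart, 194 ± 8.43 CPM in MANIO and 258 ± 15.4 CPM in DMSO (-0.41; SD, n = 4 each). SHMT1, which feeds the cycle with one-carbon units, fell by 0.35 on the log2 scale (named after its value was seen). The 2 that rose were both scarce: ALDH1L1 averaged 1.43 ± 0.161 CPM in MANIO and 0.571 ± 0.131 CPM in DMSO, and FTCD 0.597 ± 0.144 CPM in MANIO and 0.307 ± 0.0931 CPM in DMSO.

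The genes of de novo synthesis of the bases are given for purines and pyrimidines apart. Of 13 purine synthesis genes, 4 were lower, 1 was higher and 8 did not pass (median log2 fold change -0.049), with GMPS, the GMP synthetase gene, at -0.36, PRPS1, which makes the ribose phosphate donor, at -0.28 and PAICS, a bifunctional enzyme of the pathway, at -0.26. The member that rose was ADSSL1 (0.34), an adenylosuccinate synthase gene. Of 6 pyrimidine synthesis genes, 3 were higher, 1 was lower and 2 did not pass (median 0.13): CTPS2, a CTP synthase gene, fell by 0.40, whereas CMPK1, which phosphorylates CMP and UMP, rose by 0.33 and CAD, the trifunctional first enzyme, by 0.18. Called shares were 38.5% and 66.7% for these lists, on either side of the 54.6% among all tested genes.

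Salvage, kinase and transport genes were mixed. Of 16 tested genes of nucleoside salvage and interconversion, 5 rose and 5 fell (62.5% called, beside 54.6% of all tested genes). PNP, the purine nucleoside phosphorylase gene, averaged 133 ± 6.27 CPM in MANIO and 87.3 ± 4.68 CPM in DMSO (log2 fold change 0.61), and UPP1, the uridine phosphorylase gene, 41.8 ± 1.75 CPM in MANIO and 23.9 ± 2.74 CPM in DMSO (0.81; SD, n = 4 each). AMPD3, an AMP deaminase gene, rose by 0.37. The mitochondrial salvage kinases, named after their values were seen, went apart, TK2 with a log2 fold change of 0.27 and 25.0% of its exonic bases in other genes, and DGUOK with one of -0.24.

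Of 12 tested nucleotide kinase genes, 4 rose and 4 fell (66.7% called, beside 54.6% of all tested genes). AK1, a cytosolic adenylate kinase gene (1.12), AK3, a mitochondrial GTP-AMP kinase gene (0.53), and NME7 (-0.64) had the smallest p. For AK1, 33.5% of the exonic bases lie in another gene. Of 6 tested nucleoside transport genes, 4 rose and 1 fell (83.3% called). Of all tested genes 54.6% were called, 27.8% higher and 26.8% lower. SLC29A3 (0.62) and SLC29A4 (0.38), equilibrative transporter genes, were higher, and SLC29A2 (-0.40), of the same family, was lower.

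Genes that remove nucleotides or clean the pool included the largest single change on these lists. DPYD encodes dihydropyrimidine dehydrogenase, the rate-limiting enzyme of uracil and thymine breakdown and of 5-fluorouracil clearance. It had 4, 12, 7 and 4 counts in the MANIO libraries, against 86, 67, 73 and 83 counts in the DMSO libraries, with no overlap. The log2 fold change was -3.63 (SE 0.255; edgeR adjusted p = 2.4e-08), number 15706 of 15712 from the top. The gene spans 917 kb, more than any other gene on these lists, and the part of gene length in the result was not tested. NT5C, a deoxyribonucleotidase gene with 60.7% of its exonic bases in other genes, fell by 0.81 on the log2 scale, and NT5E, the cell surface nucleotidase CD73, rose by 0.36. SAMHD1, which hydrolyses dNTPs, averaged 52.2 ± 1.71 CPM in MANIO and 43.3 ± 1.47 CPM in DMSO (log2 fold change 0.27; named after its value was seen). Of the 16 tested genes of this list, 4 rose, 9 fell and 3 did not pass (median -0.21), a called share of 81.2% beside 54.6% of all tested genes, of which 26.8% were lower.

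**Figure D4:**
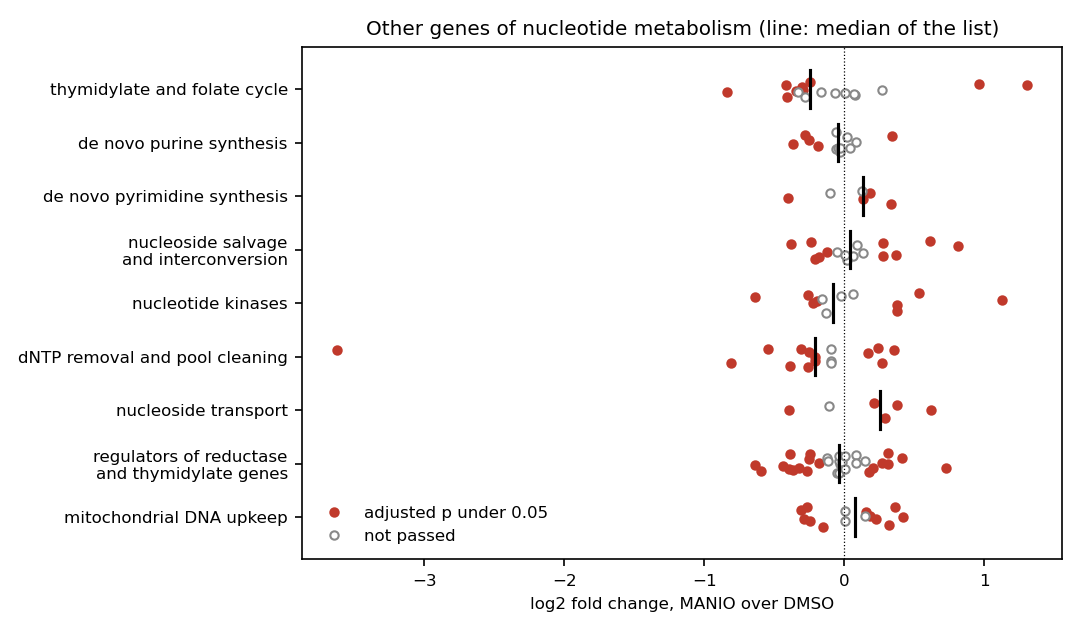
Log2 fold change, MANIO over DMSO (horizontal axis), of the other tested genes of nucleotide metabolism and its regulators, 1 row a list; filled points passed an adjusted p under 0.05, open points did not, and the black line is the median. DPYD lies alone at -3.63; the medians run between -0.24 for the thymidylate and folate cycle and 0.25 for nucleoside transport.

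Because RRM2B serves mitochondrial DNA, the genes of its upkeep were examined as well. Of 14 tested genes, 6 rose and 5 fell (78.6% called, beside 54.6% of all tested genes; median log2 fold change 0.075). TWNK, the mitochondrial helicase gene, averaged 105 ± 2.54 CPM in MANIO and 78.7 ± 2.68 CPM in DMSO (0.42), and the polymerase gamma genes POLG2 (0.36) and POLG (0.32) rose too. The 5 that fell, named after their values were seen, were PRIMPOL (-0.31), SUCLA2 (-0.29), SUCLG1 (-0.27), SSBP1 (-0.25) and OPA1 (-0.15). Mitochondrially encoded genes took 6.70% to 7.62% of the counts in MANIO and 4.82% to 7.48% in DMSO, where replicate 1 had 7.48% and the other 3 at most 5.21%. Without DMSO replicate 1, 6 of the 9 members were called, TYMP being the one lost, and the RRM2B log2 fold change lay within 1.08 to 1.18 in all 8 fits with 1 library left out.

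Of 31 regulators of the reductase and thymidylate genes, 7 rose, 11 fell and 13 did not pass (median log2 fold change -0.038). Their called share of 58.1% was near the 54.6% of all tested genes. E2F7, a repressor of E2F target genes and itself known as a p53 target, averaged 64.2 ± 2.38 CPM in MANIO and 38.8 ± 2.11 CPM in DMSO (0.73). RBL1, the p107 pocket protein gene, fell by 0.64 on the log2 scale and CDC20, an activator of the mitotic ubiquitin ligase, by 0.60. The activator gene E2F1 fell by 0.33 (named after its value was seen). Total counts were 29.3 M to 32.5 M per MANIO library and 27.9 M to 31.8 M per DMSO library, more than the number of raw reads that the labels give per sample. The cause of that gap was not tested. As a check of the cells, all 9 epithelial markers had counts in at least 1 library, and 6 had enough reads to be tested. The 9 summed to 4199 to 4678 CPM in MANIO and 3283 to 3588 CPM in DMSO, with KRT8 in the lead. Of the 6 tested, 5 were called higher, beside 27.8% of all tested genes. Of the 8 leukocyte markers MS4A1 was at 0 and none was tested, and their sum stayed at or under 0.546 CPM in every library. The 8 fibroblast markers, LUM and PDGFRA at 0 among them, summed to 40.1 to 48.5 CPM in MANIO and 20.7 to 26.7 CPM in DMSO, led by COL1A1, and both tested ones were called higher. The 5 endothelial markers each had counts in at least 1 library and summed to 0.400 to 0.576 CPM in MANIO and 1.11 to 1.36 CPM in DMSO. The 1 tested was called lower, beside 26.8% of all tested genes. The epithelial, fibroblast and endothelial sums did not overlap between the groups. Among all tested genes, 48.3% were apart in this way. The part of these sums in the results was not tested.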

How the data were processed

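RNA-seq was measured in 4 MANIO and 4 DMSO cultures from libraries of Illumina's TruSeq RNA kit, which does not mark the strand, per the labels' protocols. The authors deposited raw read counts per Ensembl gene, not normalized, as the whole-number values show. Tools named in the submitters' processing notes, with no role stated, are STAR 2.5.3a, HTSeq, DESeq2 and FastQC 1.3, and the build is GRCh38. Not given in the sources used here: annotation release, strand setting and handling of reads that match several genes.

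Counts were analysed in R 4.3.3 with edgeR 4.0.16: filterByExpr, TMM scaling and the robust quasi-likelihood F test on group alone, with Benjamini-Hochberg adjustment over all 15712 tested genes. Standard errors come from the F statistic. Alternatives used DESeq2 1.42.0, other scalings, no filter, a 1.2-fold limit, a replicate block and each library left out. The procedure was tested on simulated data in which few genes were changed. Scaling and error control under a change as wide as in these libraries were not tested. Positions, exonic lengths and overlaps come from GENCODE release 29 (GRCh38). No library was a copy of another: chi-square per degree of freedom between libraries of a group was 3.62 to 24.6. The members, gene lists and tests were chosen with earlier results of these data known. From each list the text names the 3 genes of smallest p and, where at most 3 moved the less common way, those; some genes the rule names are not reported here.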

Additional observations from a re-analysis of the deposited data

How the results depend on the processing

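All 9 genes kept the sign of their log2 fold change in each of the 16 alternatives. The alternative with a 1.2-fold limit reuses the log2 fold changes of the main fit, so its signs could not differ. The fits with 1 library left out share all their libraries with the main fit. Against a 1.2-fold limit (edgeR glmTreat), 4132 genes and 3 members passed, where 8574 and 7 passed without one; by construction this limit asks for more than a difference from 0. The lists then held 5 called genes of the folate cycle in place of 9, 0 of purine synthesis in place of 5, 1 of pyrimidine synthesis in place of 4, 4 of salvage in place of 10, 3 of the nucleotide kinases in place of 8, 3 of dNTP removal in place of 13, 1 of transport in place of 5, 7 of the regulators in place of 18 and 1 of mitochondrial DNA upkeep in place of 11. The pyrimidine list held 2 without MANIO replicate 1, MANIO replicate 2 or DMSO replicate 4. With library totals alone, RRM2 passed (log2 fold change 0.17, edgeR adjusted p = 0.0407) and TK1 did not (-0.18, edgeR adjusted p = 0.0708); the cause was not tested. DESeq2 called 8271 genes and 7 members. With 1 library left out, 7818 to 8622 genes and 5 to 7 members were called, and RRM2B, TYMS, DCK, DTYMK and DUT passed in all 8 of these edgeR fits. Replicates of equal number share only that number: the correlations of their deviations were 0.0385, 0.163, 0.118 and 0.0958. Only MANIO replicate 2 and DMSO replicate 3 correlated best with the library of their own number in the other group. With the number as a replicate block, 8845 genes and 7 members were called. Depth is no limit for the members, whose counts ran from 558 to 10671, while DPYD had as few as 4.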

Other observations

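Genes whose profile over the 8 libraries was nearest to that of RRM2B, RRM2 or TYMS were looked up among 12097 tested genes with a symbol and an average log2 CPM of at least 1. The measure was the root mean square distance between log2 CPM profiles, each centred on its own mean, and it is given as a description. The profile of RRM2B was nearest to those of SLFN5 (0.0685), ANKRA2 (0.0705) and RPS27L (0.0825). Their log2 fold changes were 1.06 or more, which follows from the measure, because the distance includes the difference between the groups. The profile of RRM2 was nearest to those of TMEM199 (0.0522), DDI2 (0.0525) and PAPSS2 (0.0537), and that of TYMS to those of MRPS15 (0.0231), TLR6 (0.0267) and SHCBP1 (0.0275).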
